A study of Mus musculus with 6 samples.

Results

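The 10 genes described here encode the enzymes that write and erase DNA methylation and the core of a Polycomb repressor complex: Dnmt1, Dnmt3a, Dnmt3b, Uhrf1, Tet1, Tet2, Tet3, Ezh2, Suz12 and Eed. They were taken by name from the gene symbols of the array's probe sets, and all 10 were found among the 18193 genes measured. The brightest probe set of a gene stands for it, and its other probe sets serve as a check. The cells were NMuMG, an immortalised line of mouse mammary epithelium, so all values come from 1 line. One group was given vehicle as control, another TGF-β at 4 ng/ml for 11 days, and the last those 11 days of TGF-β followed by 13 days after its withdrawal. All groups grew in the same medium with serum and insulin, and each had 2 Affymetrix arrays. Whether the 2 arrays stand for separate cultures is not stated in the labels, so p-values reflect only how far these arrays differ, which may be technical. The withdrawn cells had also spent longer in culture since treatment began, and withdrawal and culture time cannot be told apart.

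DNA methylation marks cytosines that are followed by guanine. Dnmt3a and Dnmt3b place new marks, while Dnmt1 copies existing ones onto the new strand when DNA is replicated, brought there by Uhrf1, which recognises half-methylated sites. Tet enzymes oxidise the mark and start its removal. Polycomb repressive complex 2 (PRC2) methylates lysine 27 of histone H3, with Ezh2 as the catalytic subunit and Suz12 and Eed as subunits it needs for activity. TGF-β turns NMuMG cells from an epithelial into a mesenchymal-like state, and both systems are known to keep genes silent through cell divisions.

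Deposited values are log2 expression, so a difference of 1 is a doubling, and array medians lay between 5.77 and 5.79. Arrays of a group differed by a median of 0.0784 to 0.0934 over all probe sets. The groups follow titles and treatment entries, because another label field names the states of the treated groups the other way round. Tagln, a smooth muscle gene that TGF-β is known to induce, averaged 12.65 on arrays titled TGF-β against 6.91 in control and 6.90 on those titled withdrawal. Of 6 mesenchymal markers, Tagln included, all 6 were called higher under TGF-β (limma, adjusted p below 0.05). From TGF-β to withdrawal 4 of them were called lower and 2 higher, Fn1 by 0.46 and Cdh2 by 0.41. Of the luminal markers, Cdh1, Krt8, Krt18 and Krt19 averaged 11.94, 14.31, 14.29 and 12.87 in control. Cldn7 averaged 4.99, below the array medians, and Epcam lay between 6.92 and 7.08. Against control, 4 of these 6 were called lower under TGF-β and 3 after withdrawal. Cdh1 and Krt19 fell by 3.63 and 3.82 under TGF-β and rose by 3.49 and 2.93 from TGF-β to withdrawal. Over that step Krt8 and Epcam were called lower, by 0.22 and 0.27, calls lost with poly-A spike scaling. Another probe set of Epcam was called higher. After withdrawal Krt8, Krt18 and Krt19 were 0.94, 0.53 and 0.89 below control, and Cdh1 0.14, which did not pass. The 5 measured leukocyte and macrophage markers averaged 5.47 to 5.69 per array, with group means of Ptprc between 3.83 and 3.99. Among them Cd68 was higher after withdrawal, at 6.63 against 5.75 in control, and its part in the results below was not tested. These are bulk RNA measurements, in which fewer cells of a kind and less RNA per cell cannot be told apart.

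Most of the calls among the 10 genes were decreases, and the largest ones grew after TGF-β was removed. Dnmt1, Uhrf1 and Ezh2 were highest in control, lower after 11 days of TGF-β and lowest after 13 days of withdrawal. Eed fell during the withdrawal period, and Tet2 went the other way, rising above control. The limma test with Benjamini-Hochberg adjustment over all genes, at an adjusted p of 0.05, called 5 of the 10 lower and 0 higher under TGF-β (6 and 0 at an unadjusted p of 0.05), where 17.5% of all genes were called lower, 15.0% higher and 32.4% either way. Against TGF-β, the withdrawn cells had 5 of the 10 lower and 1 higher, where 22.1% of all genes were lower, 21.8% higher and 43.9% either way. Against control, withdrawal left 6 lower and 2 higher, where the shares over all genes were 23.6%, 21.7% and 45.3%. The median difference of the 10 was -0.21, -0.22 and -0.31 in these comparisons, against -0.011, -0.033 and -0.042 over all genes. Without the second control array or the second TGF-β array, 3 of the 10 were called lower under TGF-β, and without the first control array or the second withdrawal array 1 was called higher against control after withdrawal. The comparisons share arrays, so their counts are not independent of each other.

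**Figure D1:**
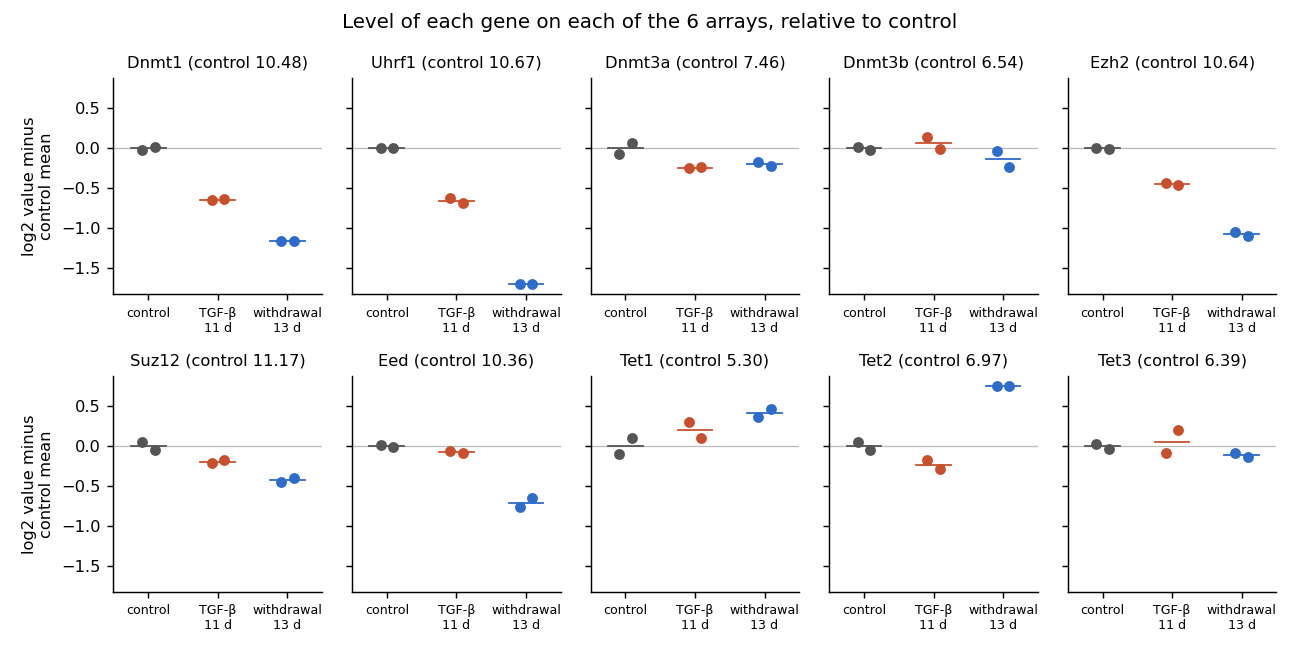
Log2 value of each gene on each array minus its control mean (y axis, shared), with 2 points a group and a line at the group mean; the control mean stands in each title. Dnmt1, Uhrf1 and Ezh2 step down from control to TGF-β to withdrawal, Eed is low in withdrawal, and Tet2 is high in withdrawal.

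Dnmt1 and Uhrf1, the pair that maintains methylation through replication, gave the clearest values. Dnmt1 read 10.46 and 10.49 in control, 9.83 and 9.85 under TGF-β and 9.32 and 9.33 after withdrawal. The groups did not overlap, and the gaps between them were many times the gaps within them. Lack of overlap alone says little with 2 arrays a group. It held for 8, 9 and 10 of the 10 genes in the 3 comparisons, genes not called among them. The share over all genes was not counted. It fell by 0.64 under TGF-β (SE 0.048, adjusted p = 2.20e-04) and by a further 0.51 on withdrawal (SE 0.048, adjusted p = 3.34e-04). After withdrawal it stood at 44.9% of its control level, a 2.23-fold decrease. The 95% confidence interval of that log2 difference ran from -1.27 to -1.04. All 3 probe sets of Dnmt1 were called lower in each comparison, with withdrawal minus control between -1.15 and -0.85. All 3 are of the x or a type, which can match several transcripts, so a check without such probe sets could not be made. Scaling the arrays to poly-A spikes, RNAs added to each sample ahead of labelling, left the second step at -0.365 and ended its call (adjusted p = 0.11).

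Uhrf1 read 10.67 on both control arrays, 10.05 and 9.98 under TGF-β, and 8.98 and 8.97 after withdrawal. Here too the groups were fully separate, and the second step was the larger. The fall was 0.66 under TGF-β (SE 0.051, adjusted p = 2.50e-04) and 1.04 on withdrawal (SE 0.051, adjusted p = 2.82e-05). Withdrawn cells kept 30.9% of the control level, a 3.23-fold decrease with a log2 interval from -1.82 to -1.57, the largest change among the 10 genes. Its dimmer probe set was also called lower in each comparison, at -0.41, -1.01 and -1.42.

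Ezh2, the PRC2 methyltransferase, is measured by 1 probe set. It read 10.64 on both control arrays, 10.22 and 10.18 under TGF-β, and 9.60 and 9.55 after withdrawal. The order of the groups matched that of Dnmt1 and Uhrf1, again without overlap. Ezh2 fell by 0.44 under TGF-β (SE 0.050, adjusted p = 0.00112) and by 0.62 on withdrawal (SE 0.050, adjusted p = 1.73e-04). Its withdrawal level was 47.8% of control, a 2.09-fold decrease with a log2 interval from -1.19 to -0.94.

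For a gene that returned fully on withdrawal, the withdrawal-minus-control difference divided by the TGF-β-minus-control difference would be 0, and for one that stayed put it would be 1. This ratio was 1.80 for Dnmt1, 2.58 for Uhrf1 and 2.40 for Ezh2. Its standard errors, 0.033, 0.092 and 0.11, were propagated from the spread of each gene's own arrays. That spread lacks the moderation over genes behind the limma errors above and is smaller for these genes. The precision of the ratios is therefore overstated beside that of the differences. All 3 genes moved further from control after TGF-β was removed. With poly-A scaling the ratios were smaller, at 1.39, 1.94 and 1.65, and still above 1. The same ratio was 0.81 for Dnmt3a and -3.27 for Tet2, with standard errors of 0.22 and 1.02, both resting on small TGF-β differences.

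**Figure D2:**
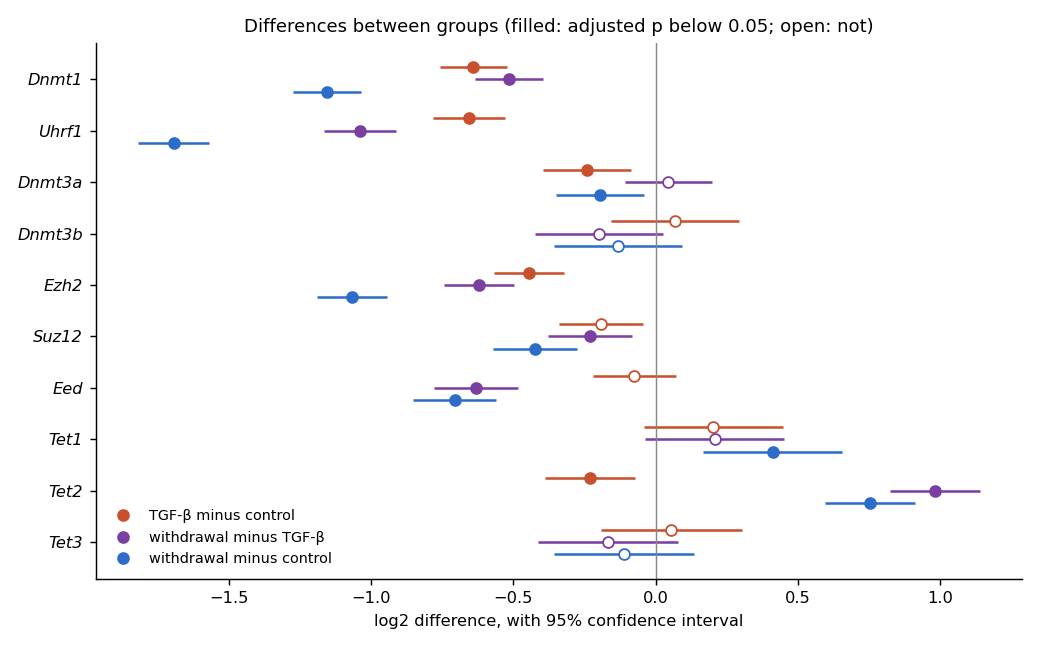
Log2 difference (x axis) of each gene in the 3 comparisons, with 95% confidence intervals from limma; filled points passed the adjusted p of 0.05 and open ones did not. The intervals of Dnmt1, Uhrf1 and Ezh2 lie below 0 in all 3 comparisons, and those of Tet2 lie below 0 under TGF-β and above 0 in both withdrawal comparisons.

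The promoter windows below are shown because Dnmt1, Uhrf1 and Ezh2 had the same order of groups. A second reason is that E2F factors, only some of which activate S-phase genes, are known to act at promoters of replication-linked genes. RefSeq windows of assembly GRCm38.p6, from 250 bases before to 50 after a start, were found for all 10 genes, 15 windows in all. Each was searched on both strands for the E2F letters TTTCCCGC, TTTCGCGC, TTTGCCGC and TTTGGCGC. Windows of 4 of the 10 genes held a match: Dnmt1, Uhrf1, Ezh2 and Suz12. Over all 32851 windows the share with a match was 2.26%, and over the 8701 windows in the upper quartile of CpG number it was 5.15%. Of the 15 windows of the 10 genes, 4 held a match (26.7%), and 9 were in that CpG-rich quartile. The 4 matching windows held 33, 33, 31 and 41 CpG in the order Dnmt1, Uhrf1, Ezh2, Suz12, against a median of 7 over all windows. A match describes letters in this window and is not a measured binding site. Capitals mark the E2F letters on either strand.
Dnmt1 (chr9:20952574-20952873, minus strand, 1 of its 3 windows): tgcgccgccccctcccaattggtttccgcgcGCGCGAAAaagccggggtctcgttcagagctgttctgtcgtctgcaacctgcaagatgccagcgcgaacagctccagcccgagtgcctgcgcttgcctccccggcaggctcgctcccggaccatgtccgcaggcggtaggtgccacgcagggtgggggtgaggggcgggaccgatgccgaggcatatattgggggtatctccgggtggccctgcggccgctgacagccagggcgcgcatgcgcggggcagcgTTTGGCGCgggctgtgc
Uhrf1 (chr17:56304063-56304362, plus strand, 1 of its 2 windows): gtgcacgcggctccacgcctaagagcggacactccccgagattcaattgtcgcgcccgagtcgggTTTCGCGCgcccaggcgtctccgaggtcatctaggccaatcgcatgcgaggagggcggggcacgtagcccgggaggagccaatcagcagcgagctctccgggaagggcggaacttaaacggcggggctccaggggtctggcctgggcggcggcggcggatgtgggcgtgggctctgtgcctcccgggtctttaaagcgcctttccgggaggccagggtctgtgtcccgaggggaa
Ezh2 (chr6:47594981-47595280, minus strand): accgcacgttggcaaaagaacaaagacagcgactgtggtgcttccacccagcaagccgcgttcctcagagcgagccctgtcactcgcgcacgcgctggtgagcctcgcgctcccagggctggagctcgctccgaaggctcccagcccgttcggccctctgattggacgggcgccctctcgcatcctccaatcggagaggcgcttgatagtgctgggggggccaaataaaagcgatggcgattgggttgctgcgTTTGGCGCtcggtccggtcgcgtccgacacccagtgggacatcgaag
Suz12 (chr11:79992856-79993155, plus strand): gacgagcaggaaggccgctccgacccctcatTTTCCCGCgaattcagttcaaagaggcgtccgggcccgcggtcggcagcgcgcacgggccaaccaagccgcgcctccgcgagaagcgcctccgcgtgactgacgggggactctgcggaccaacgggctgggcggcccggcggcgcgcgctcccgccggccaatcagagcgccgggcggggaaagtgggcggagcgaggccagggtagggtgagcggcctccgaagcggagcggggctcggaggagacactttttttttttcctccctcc

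Positions count from the start site of the window shown, which is 1 of 3 for Dnmt1 and 1 of 2 for Uhrf1. In that window Dnmt1 holds the letters TTTGGCGC at position 34, and TTTCGCGC on the opposite strand at position -219. In Ezh2, TTTGGCGC begins at position 4, in Uhrf1 TTTCGCGC begins at position -185, and in Suz12 TTTCCCGC begins at position -219. The windows of Eed, Tet1, Tet2, Tet3, Dnmt3a and Dnmt3b held 0 matches to these letters. The CCAAT letters, a common promoter element, were in the windows shown for all 4 genes, in those of Eed and Tet3, and in 37.4% of all windows. The letters TTTGAA of the CHR element, known from mitotic genes, were in 1 window of Dnmt1 other than the one shown, in those of Dnmt3b, Suz12 and Eed, and in 17.9% of all windows. Of the Smad letters, GTCTAGAC was in 0 of the 15 windows and in 0.213% of all. GGCGCC, which overlaps the end of the E2F letters TTTGGCGC where a C follows, was in windows of Dnmt1, Dnmt3a, Dnmt3b and Ezh2 and in 11.9% of all.

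Eed, which binds methylated histone tails within PRC2, changed later than Ezh2. It read 10.37 and 10.35 in control, 10.30 and 10.26 under TGF-β, and 9.59 and 9.71 after withdrawal. The control and TGF-β arrays lay close together, and both withdrawal arrays were lower. The TGF-β difference was -0.075 with an interval from -0.22 to 0.072 (adjusted p = 0.416). On withdrawal Eed fell by 0.63 (SE 0.060, adjusted p = 3.42e-04) and reached 61.3% of control. Its other probe set averaged 4.30, in the dim range, and also fell on withdrawal, by 0.49, but its difference from control was -0.10 and did not pass.

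Suz12, the scaffold subunit, had the smallest withdrawal differences of the 3 PRC2 core genes, while under TGF-β the value of Eed was smaller. It read 11.22 and 11.12 in control, 10.96 and 11.00 under TGF-β, and 10.72 and 10.78 after withdrawal. The groups did not overlap, but the gap between control and TGF-β was close to the spread in control. Its TGF-β difference of -0.19 did not pass (adjusted p = 0.0562), but was called when the spread followed intensity (9.25e-04), without the dimmest 40% of genes (0.019), with quantile normalisation (0.043) and with poly-A or hybridization spikes (0.0216 and 0.0306). It was 0.42 lower after withdrawal than in control (SE 0.060, adjusted p = 0.00178), at 74.6% of that level. Of its 6 probe sets, 2 were called lower against control and 4 did not pass, with values from -0.61 to -0.014. Leaving out probe sets that can match several transcripts gave -0.17 for this comparison, which did not pass (adjusted p = 0.174). The step from TGF-β to withdrawal, -0.23 (adjusted p = 0.023), turned to 0.049 with that choice of probe sets. It did not pass without the first or second TGF-β array or the first withdrawal array (adjusted p = 0.0637, 0.101 and 0.0929). Its call was also lost under poly-A spikes (-0.082, adjusted p = 0.81), cyclic loess (-0.161, adjusted p = 0.0697) or the mean of probe sets (-0.103, adjusted p = 0.278).

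Tet2, which oxidises methylcytosine, was called lower under TGF-β and higher on withdrawal. It read 7.02 and 6.92 in control, 6.79 and 6.68 under TGF-β, and 7.72 on both withdrawal arrays. TGF-β arrays were lowest and withdrawal arrays highest. From TGF-β to withdrawal it rose by 0.98 (SE 0.064, adjusted p = 7.84e-05), a 1.98-fold increase. It ended 0.75 above control, with an interval from 0.59 to 0.91 (adjusted p = 2.04e-04). The second probe set of Tet2 was called higher in both comparisons, at 0.89 and 0.46, but under TGF-β it did not pass (-0.43, adjusted p = 0.0777). The decrease of the brightest probe set under TGF-β, -0.23, passed at an adjusted p of 0.0396. It did not pass in a fit to the control and TGF-β arrays alone (adjusted p = 0.065) or in the fit to all probe sets (0.0544). That call was also lost without either control array (adjusted p = 0.187 and 0.0668), without the second TGF-β array (0.175) and without either withdrawal array (0.065).

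Tet1 was dim, just below the array medians, where differences on this scale are understated. It read 5.20 and 5.40 in control, 5.60 and 5.40 under TGF-β, and 5.66 and 5.76 after withdrawal. Withdrawal arrays were above both control arrays, while the TGF-β pair reached down to the upper control value. Withdrawal minus control was 0.41 (SE 0.10, adjusted p = 0.0173), and 3 of its 4 probe sets were called higher. It was 0.27 and 0.034 with scaling to poly-A and hybridization spikes, and did not pass (adjusted p = 0.234 and 0.817). The call also ended without the first control array or the second withdrawal array (adjusted p = 0.0871 and 0.0893). Tet3, with 1 probe set, read 6.36 to 6.42 in control, 6.30 to 6.60 under TGF-β and 6.26 to 6.31 after withdrawal. The 2 TGF-β arrays lay on either side of the control arrays, and Tet3 passed in 0 of the 3 comparisons. Its interval for withdrawal minus control ran from -0.36 to 0.14.

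The de novo methyltransferases moved little. Dnmt3a read 7.40 and 7.53 in control, 7.21 and 7.23 under TGF-β, and 7.29 and 7.25 after withdrawal. Both treated groups lay below control and near each other. Its decreases of 0.24 and 0.20 from control passed at adjusted p = 0.0305 and 0.0469. With the replicate number as a block neither passed (adjusted p = 0.0507 and 0.0684), and its 5 probe sets ranged from -0.241 to 0.017 under TGF-β, with 1 called lower, and from -0.518 to -0.014 after withdrawal, with 2 called lower. Without the second control array the differences were -0.17 and -0.13 (adjusted p = 0.145 and 0.214). Without the first or second TGF-β array the first of them had an adjusted p of 0.115 and 0.0977. The second was 0.0746 without either TGF-β array, and 0.0926 and 0.155 without the first or second withdrawal array. Dnmt3b read 6.56 and 6.51 in control, 6.68 and 6.52 under TGF-β, and 6.51 and 6.30 after withdrawal. The groups lay within 0.2 of each other and passed in 0 of the 3 comparisons, with an interval for withdrawal minus control from -0.36 to 0.093. Its dimmer probe set, at a mean of 5.19, was called lower after withdrawal, at -0.53 against control (adjusted p = 0.00393).

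**Figure D3:**
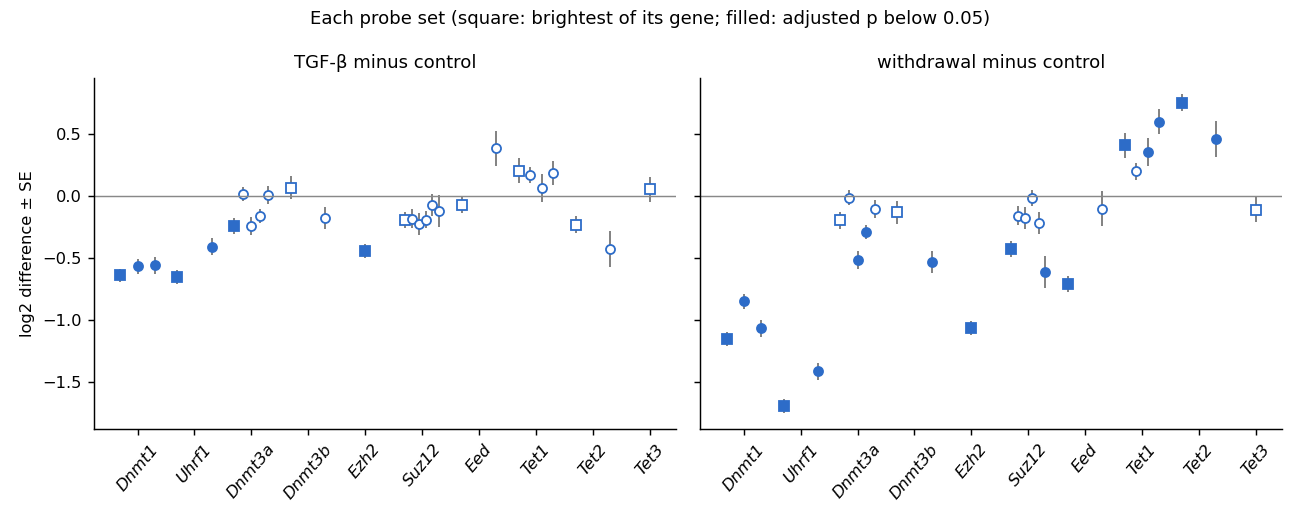
Log2 difference ± SE (y axis) of each of the 28 probe sets of the 10 genes, brightest first within a gene, for TGF-β minus control and withdrawal minus control, from a fit to all probe sets with 1 symbol. Squares are the probe sets used in the text and filled marks passed. All probe sets of Dnmt1, Uhrf1 and Ezh2 are filled and below 0 in both panels, whereas those of Dnmt3a and Suz12 are mixed.

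Over all 28 probe sets of the 10 genes, tested with every probe set of 1 symbol, 7 were called lower and 0 higher under TGF-β, and 12 lower and 5 higher after withdrawal against control. The shares of all probe sets called either way were 27.2% and 40.8%. All 7 belonged to Dnmt1, Uhrf1, Ezh2 and Dnmt3a, and the 5 higher ones to Tet1 and Tet2.

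Genes that work beside these enzymes were mixed. Hells, a chromatin remodeller needed for DNA methylation, read 11.37 and 11.39 in control, 10.89 and 10.81 under TGF-β, and 9.37 and 9.40 after withdrawal. The groups were apart in the same order, and withdrawal minus control was -1.99 (adjusted p = 4.85e-06). Pcna, the replication clamp that recruits Dnmt1, differed by -1.06 between withdrawn and control cells. Of 11 measured partner and base excision repair genes, 4 rose and 5 fell under TGF-β, and 2 rose and 7 fell after withdrawal against control. Over all genes 32.4% and 45.3% were called either way. The list's median difference from control was 0.062 and then -0.66. The rises under TGF-β included all 3 Gadd45 genes, stress-induced genes that have been linked to active demethylation. Gadd45g rose by 2.18, Gadd45a by 1.39 and Gadd45b by 1.20. On withdrawal they parted. Gadd45a read 7.83 and 7.99 in control, 9.31 and 9.30 under TGF-β and 10.06 and 10.17 after withdrawal, ending 2.21 above control. Gadd45g read 9.90 and 9.95, then 12.11 and 12.10, then 8.81 and 8.85, ending at -1.10 against control.

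S-phase and proliferation genes were measured beside these enzymes because the copying of methylation is coupled to replication. Of 21 such genes, 1 (Ccne1, chosen for mention after its value was seen) rose and 15 fell under TGF-β, 0 rose and 19 fell from TGF-β to withdrawal, and 0 rose and 20 fell against control (limma; the counts of rises at an unadjusted p of 0.05 were 1, 0 and 0). The shares of all genes called either way were 32.4%, 43.9% and 45.3%. Ccne1 did not pass with poly-A or hybridization spikes (0.055 and 0.186), which left 0 higher and 16 lower under TGF-β. The median difference of the list was -0.356, -1.115 and -1.346. Centred on each gene's mean, the list's median was 0.64 and 0.62 on the control arrays, 0.26 and 0.31 under TGF-β, and -0.895 and -0.795 after withdrawal. This is the same order of groups as for Dnmt1, Uhrf1 and Ezh2, and its part in their decreases was not tested. Mki67, a proliferation marker, differed from control by -0.78 under TGF-β and -1.55 after withdrawal, and E2f8, an E2F family member, by -1.06 and -2.29. Of the other E2F genes in the list, E2f1 differed by -0.43 and -1.075, and E2f2 did not pass in any comparison. Mcm7, a subunit of the replicative helicase, differed by -0.665 and -1.22.

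**Figure D4:**
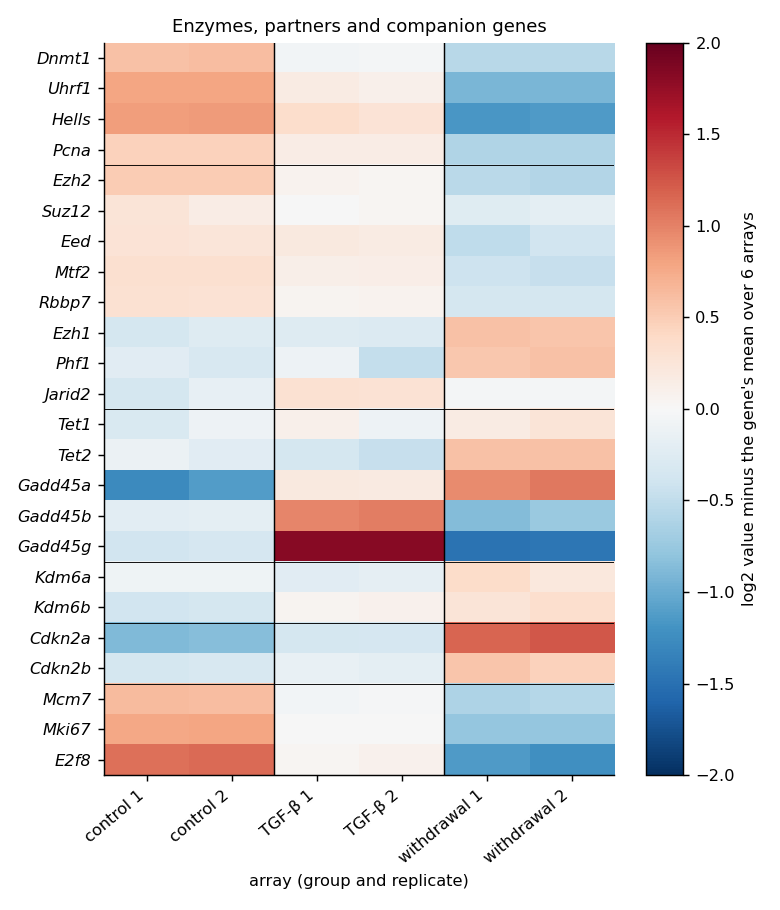
Log2 value of each gene minus its mean over the 6 arrays (colour), with arrays in columns by group and genes in rows by role: methylation maintenance, PRC2, Tet and Gadd45, lysine 27 demethylases, Cdkn2a and Cdkn2b, and proliferation. The rows are a selection from the 10 genes and the lists, without Dnmt3a, Dnmt3b and Tet3. Of the Polycomb reference genes only Cdkn2a and Cdkn2b are shown, and the median of that list was -0.097 for withdrawal minus control. The maintenance, Ezh2 and proliferation rows shown go from red in control to blue in withdrawal, while Ezh1, Phf1, Tet2, Gadd45a and Cdkn2a are red in withdrawal.

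Other PRC2 genes did not follow Ezh2 as a block. Of 8 accessory and paralogue genes, 2 rose and 2 fell under TGF-β, and 2 rose and 2 fell after withdrawal against control. Over all genes 32.4% and 45.3% were called either way, so these counts were near those shares. Ezh1, the paralogue of Ezh2 that is typical of non-dividing cells, read 7.29 and 7.38 in control, 7.39 and 7.38 under TGF-β, and 8.23 and 8.20 after withdrawal. Control and TGF-β arrays overlapped for Ezh1, and withdrawal arrays were higher, by 0.88 over control (SE 0.054, adjusted p = 5.72e-05). Phf1, a Polycomb-like accessory protein, rose by 0.83. Mtf2, another Polycomb-like protein, and Rbbp7, a histone-binding subunit, fell by 0.75 and 0.65. Under TGF-β, Jarid2, which helps recruit PRC2, rose by 0.56, a call that ended with poly-A scaling (0.27, adjusted p = 0.19). Aebp2 rose by 0.26, which was 0.10 with hybridization spikes and turned to -0.031 with poly-A spikes, both not passing, while Rbbp7 and Mtf2 fell by 0.24 and 0.20.

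PRC1, the complex that ubiquitinates histone H2A and binds the PRC2 mark, was mixed. Of 19 measured PRC1 genes, 2 rose and 6 fell under TGF-β, 5 rose and 7 fell from TGF-β to withdrawal, and 3 rose and 6 fell against control. With poly-A spikes the last 2 counts were 6 higher and 0 lower, and 0 higher and 5 lower. With hybridization spikes they were 1 higher and 8 lower, and 0 higher and 13 lower. The list's median difference from control was -0.056 and 0.013. Without spike scaling, 32.4%, 43.9% and 45.3% of all genes were called either way in the 3 comparisons. Pcgf5 and Scmh1 both rose by 0.89 under TGF-β, and Kdm2b, which brings PRC1 to unmethylated CpG islands, fell by 0.80, with Phc3 at -0.53. After withdrawal L3mbtl2 and Yaf2 differed from control by -0.69 and -0.66, Kdm2b by -0.48 and Scmh1 by 0.48, the last call being lost with either spike scaling (0.34 and 0.10). The ligase subunit gene Rnf2 averaged 9.51, 9.52 and 9.39 in the 3 groups and Bmi1 10.215, 10.07 and 10.24, and both passed in 0 of the 3 comparisons. Rnf2 and Bmi1 were singled out after their values were seen.

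On the opposing side, the lysine 27 demethylase gene Kdm6b read 8.49 and 8.53 in control, 8.93 and 8.97 under TGF-β and 9.13 and 9.21 after withdrawal. Its groups did not overlap, and it rose by 0.44 under TGF-β and stood 0.66 above control after withdrawal (adjusted p = 1.97e-04). The first rise did not pass with either spike scaling (0.15 and 0.28, adjusted p = 0.461 and 0.0969), and another probe set of Kdm6b was called lower from TGF-β to withdrawal. Kdm6a, a second demethylase, was 0.38 above control after withdrawal, but 0.24 and 0.0050 with poly-A and hybridization spikes, which did not pass. Of 6 demethylase and H2A deubiquitinase genes, 3 rose and 0 fell under TGF-β (limma; 3 and 0 at an unadjusted p of 0.05). The other 2, Usp16 at 0.34 and Bap1 at 0.19, also did not pass with either spike scaling, and Bap1 turned to -0.099 with poly-A spikes. In this list 2 rose and 1 fell after withdrawal against control. Over all genes 32.4% were called either way under TGF-β and 45.3% after withdrawal against control.

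Genes known as Polycomb targets in other cells were read in the same fits. Cdkn2a, the cell cycle inhibitor locus on which Ezh2 is known to act, read 8.22 and 8.26 in control, 8.75 and 8.76 under TGF-β, and 10.26 and 10.34 after withdrawal. Its order of groups was the reverse of that of Ezh2, with no overlap. It rose by 0.52 under TGF-β, a call lost with poly-A scaling (0.23, adjusted p = 0.261), and by 1.54 on withdrawal, to 2.06 above control (SE 0.053, adjusted p = 4.48e-06). The neighbouring inhibitor gene Cdkn2b differed by 0.16 under TGF-β, which did not pass, and was 0.84 above control after withdrawal. Of the 12 measured genes of this list, 3 rose and 1 fell under TGF-β, and 4 rose and 3 fell after withdrawal against control. Over all genes 32.4% and 45.3% were called either way, so these counts were near those shares. The median of the list was -0.097 in the last comparison, on the other side of 0 from Cdkn2a. Gata6 fell by 1.71 under TGF-β and stood at -0.63 against control after withdrawal, and Pax3 rose by 0.39 and 0.49, both calls being lost with either spike scaling. The link between these values and PRC2 was not tested.

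Germline genes that are silenced by promoter methylation in body cells showed no rise that passed. Of 12 such genes, 0 were called in either direction under TGF-β by limma (1 higher and 1 lower at an unadjusted p of 0.05). After withdrawal 0 were higher and 1 lower against control (0 and 1 unadjusted), where 21.7% and 23.6% of all genes were called. The one called lower was Mael, at -0.27. With hybridization spikes, which lowered the median of all genes to -0.42 here, 11 of the 12 were called lower (median -0.402), and with poly-A spikes 0 were. Their mean level per array lay between 3.70 and 3.80, and Ddx4, Sycp1 and Sycp3 averaged 3.12, 3.15 and 3.26 in control, in the dim range where a small rise would be hard to see.

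**Figure D5:**
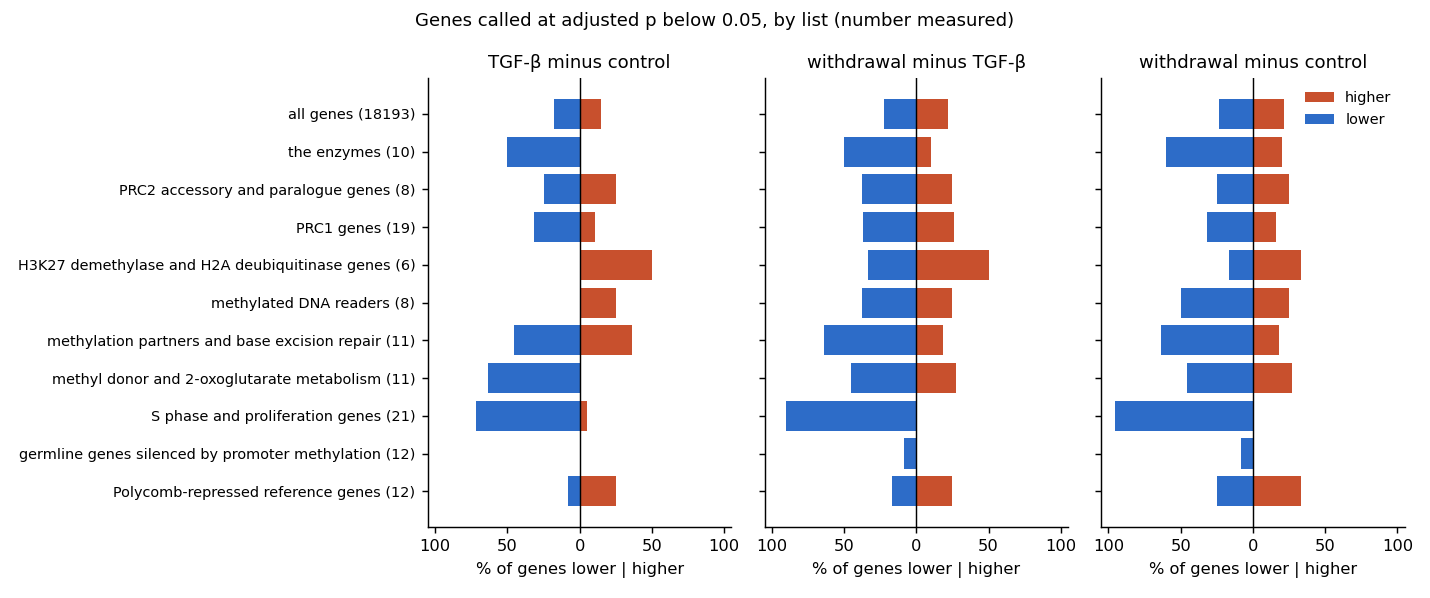
Share of the genes in each list (x axis, percent) called lower (left, blue) or higher (right, orange) in the 3 comparisons, with all 18193 genes in the top row; the number measured is in brackets. The enzymes and the S-phase list lean to the left in all panels, and the germline list is nearly empty.

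The supply of methyl groups and of the Tet cofactor was read as well. Of 11 measured genes of methyl donor and 2-oxoglutarate metabolism, 0 rose and 7 fell under TGF-β (limma; 0 and 10 at an unadjusted p of 0.05), and 3 rose and 5 fell after withdrawal against control. The last count was 1 higher and 5 lower with poly-A spikes, and 0 and 8 with hybridization spikes. Without spike scaling, 32.4% of all genes were called either way under TGF-β and 45.3% after withdrawal against control. Ahcy, which clears the by-product of methylation reactions, read 11.99 and 11.98 in control, 11.49 and 11.52 under TGF-β and 10.83 and 10.86 after withdrawal, a fall of 1.14 from control. Mtr, methionine synthase, differed from control by -0.43 and -0.95, and Shmt2, a mitochondrial one-carbon enzyme, by -1.24 after withdrawal. Idh2, which makes 2-oxoglutarate in mitochondria, fell by 0.49 under TGF-β and then rose by 1.10, and Idh1, its cytosolic relative, rose by 0.66 on withdrawal. Both were lowest under TGF-β and highest after withdrawal. With hybridization spikes neither stood above control by a margin that passed (adjusted p = 0.998 for Idh1 and 0.0983 for Idh2). Idh1 also did not pass against control with poly-A spikes (0.24, adjusted p = 0.302). Idh3a fell at both steps, by 0.30 and 0.74.

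The list of methylated DNA readers had 8 measured genes, which include relatives of readers and not only proteins that bind the mark. Of these, 2 rose and 0 fell under TGF-β (limma, with 2 and 2 at an unadjusted p of 0.05). After withdrawal 2 rose and 4 fell against control. Over all genes 32.4% and 45.3% were called either way. Zbtb4, a zinc finger protein that binds methylated CpG, read 7.31 and 7.42 in control, 7.49 and 7.35 under TGF-β, and 8.85 and 8.84 after withdrawal, 1.48 above control. Its relative Zbtb38 rose by 0.93 under TGF-β and fell by 1.26 on withdrawal. Mbd4, a glycosylase that repairs deaminated methylcytosine, differed from control by -0.499 after withdrawal, and its relative Mbd3 by -0.48. Mbd1 was at 0.23 and 0.63, but under TGF-β another probe set was called lower (-0.25) and poly-A scaling turned the value to -0.063. The second value was 0.248 with hybridization spikes and did not pass (adjusted p = 0.0775).

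The genes closest in pattern were taken as those with the smallest root mean square distance over the 6 arrays, each gene centred on its mean, among genes above the median level. For Dnmt1 they were Tamm41, Mcm7 and Ptpmt1, at distances of 0.029, 0.034 and 0.034. Uhrf1 lay nearest to Ier3, Prim1 and Anp32e (0.029, 0.030 and 0.044), of which Prim1 encodes a primase subunit. Ezh2 lay nearest to Evl, Mcm8 and Mrps28 (0.017, 0.033 and 0.040), and Eed to Bud23, Dnajc11 and Plcxd2 (0.019, 0.022 and 0.024). Tet2 was closest to Hipk2, Ubr4 and Cnksr3 (0.036, 0.037 and 0.042). For Suz12 the nearest were Arf2, Msl2 and Nudcd2, for Dnmt3a Vps72, Hspbap1 and Mrps14, and for Tet1 Mier1, Skap2 and Man1b1, all within 0.056. Likeness over 6 arrays of 3 groups is a description and rests on 3 group means.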

How the data were processed

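Expression was measured on 6 one-colour arrays of NMuMG cells. Each probe set has a deposited log2 expression value, which the authors obtained by RMA according to the submitters' processing notes. The RMA version is not given in the sources used here. RMA brings arrays to a common distribution, so a shift shared by all genes is removed, and no detection calls were used. Of 45101 probe sets, 34945 had 1 gene symbol in the platform annotation, 932 had several, 9160 had none and 64 were controls. Those with 1 symbol gave 18193 genes, each represented by its brightest probe set. The tables' symbols matched RefSeq of GRCm38.p6 for 34741 probe sets and 0 needed updating.

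All 6 arrays entered 1 linear model for each gene in limma 3.58.1 in R 4.3.3 (lmFit, eBayes, 3 residual and 2.857 prior degrees of freedom, two-sided, Benjamini-Hochberg over all genes, threshold 0.05), and was tested on simulated data. Tables and figures used Python 3.11.15, pandas 2.3.3 and matplotlib 3.10.9. Alternatives were an intensity trend, the replicate number taken as a block, a filter on dim genes, other probe set choices, other normalisations, scaling to spikes, fits to single pairs of groups and leaving out each array. Deviations of arrays with the same replicate number correlated at -0.016 to 0.007, so the numbers do not pair the arrays. The genes, lists and tests were chosen with earlier results of these data known. The text names all 10 genes, some of the cell type markers, and the 3 nearest genes in pattern of each of the 10 that was called. List genes were mostly chosen from up to 4 called genes per list and comparison, with the largest differences and no overlap between groups. Not all of these are named. Promoter windows are RefSeq's.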

Additional observations from a re-analysis of the deposited data

How the results depend on the processing

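The decreases of Uhrf1 and Ezh2 kept their direction and call in all 3 comparisons under every alternative run, other probe sets of Uhrf1 included, and so did those of Dnmt1 apart from the second step with poly-A scaling. Over all 10 genes, 437 of 525 alternative values kept direction and side of the threshold, 47 lost a call, 16 gained one and 25 changed sign. The cause of the changes was not tested. Dnmt1 had no value without x, s and a probe sets, so that alternative says nothing of it. List counts moved with spike scaling too: PRC2 accessory genes under TGF-β went from 2 higher and 2 lower to 0 and 2 (poly-A), and Polycomb reference genes after withdrawal against control from 4 and 3 to 2 and 8 (hybridization). With the replicate block, the calls of Dnmt3a from control were lost and no other call of the 10 genes changed (4, 6 and 7 of the 10 were called). Over all genes the block left 5519, 7688 and 7908 called, and leaving out an array 4248 to 5781, 6715 to 7501 and 6706 to 8073.

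Spike scaling moved the median of all genes under TGF-β to -0.30 (poly-A) and -0.17 (hybridization), from TGF-β to withdrawal to 0.12 and -0.25, and for withdrawal against control to -0.18 and -0.42. The poly-A offsets differed within a group, at 0.0071 and -0.29 on the control arrays. For Dnmt1 under TGF-β the SE was 0.173 with poly-A and 0.134 with hybridization spikes, against 0.048 without. The part of this wider error in the lost calls was not tested. The split of higher and lower calls went from 2726 and 3175 to 818 and 5334 or 1319 and 4408 under TGF-β, from 3960 and 4023 to 3506 and 1500 or 2146 and 7772 in the second comparison, and from 3943 and 4292 to 1967 and 3730 or 1655 and 12634 in the third. The total was then 5006 with poly-A scaling in the second and 14289 with hybridization spikes in the third, against 7983 and 8235.

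The counts of the 10 genes moved as follows. Lower under TGF-β: 4 with the replicate block, the mean of probe sets, without x, s and a probe sets, or in a fit to those groups alone. The count was 6 with the intensity trend, without the dimmest 40% of genes, with quantile normalisation or with either spike scaling. Hybridization spikes gave 7 lower from TGF-β to withdrawal and 8 lower against control. Withdrawal against TGF-β: 2 higher with the mean of probe sets, 4 lower with cyclic loess, and 3 lower with poly-A scaling or without x, s and a probe sets. Withdrawal against control: 1 higher without the dimmest 40% of genes, a filter that left Tet1 out and so could not call it. The count called higher was also 1 without x, s and a probe sets or with either spike scaling. Without x, s and a probe sets 3 were lower, a choice in which Dnmt1 and Dnmt3b have no probe set left.

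The ratio of withdrawal to TGF-β differences moved for Dnmt1 to 1.74 (mean of probe sets), 1.72 (cyclic loess), 1.39 (poly-A) and 1.92 (hybridization), with 1.78 to 1.83 over arrays left out. For Uhrf1 it was 2.93 (mean of probe sets), 1.94 (poly-A) and 2.46 to 2.72 over arrays left out, and for Ezh2 2.28 (cyclic loess), 1.65 (poly-A) and 2.31 to 2.50. For Dnmt3a it was 0.81, with 1.82 (mean of probe sets), 1.05 (quantile), 1.43 (hybridization) and 0.73 to 0.90 over arrays left out. For Tet2 it was -3.27, with -1.85 (mean of probe sets), -1.18 (poly-A), -0.97 (hybridization) and -4.45 to -2.51 over arrays left out.

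Sign changes were in differences that had not passed, except for Dnmt3a under TGF-β (other probe sets at 0.0090 and 0.017) and Suz12 from TGF-β to withdrawal (0.049 without x, s and a probe sets; other probe sets at 0.175, 0.026 and 0.049). Under TGF-β, Dnmt3b turned to -0.053 (mean of probe sets), -0.22 (poly-A), -0.091 (hybridization), -0.012 to 0.147 over arrays left out and -0.17 in its other probe set. Tet1 turned to -0.086 (poly-A), Tet3 to -0.23 (poly-A), -0.10 (hybridization) and -0.089 to 0.202 over arrays left out, and Eed to 0.15 (mean of probe sets) and 0.39 in its other probe set. From TGF-β to withdrawal, Dnmt3a turned to -0.10 (mean of probe sets), -0.013 (quantile), -0.17 (hybridization) and to -0.11, -0.13, -0.031 and -0.28 in its other probe sets, and Tet1 to -0.011 (hybridization).

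With 2 arrays a group, dim genes such as Tet1 have no measured background to be set against.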
